A study of Mus musculus with 10 samples.

Results

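Chemokines are small secreted proteins that draw white blood cells along a gradient, and the epidermis makes a characteristic set of them. The genes described here are 8 chemokines that keratinocytes can make (Cxcl1, Cxcl2, Cxcl3, Cxcl5, Cxcl14, Cxcl16, Ccl20 and Ccl27a) and Cxcr2, the receptor for the first 4 of them. They were found by gene name in the deposited table of 49671 gene IDs, where all 9 names had a row. Ccl27a had 2 further rows on unplaced scaffolds, both at 0 in every library, and the row on chromosome 4 was used. RNA was sequenced from SmoM2-YFP-expressing mouse skin epidermal cells collected by FACS, in 10 libraries that form 5 groups of 2. The design text gives the purpose as the role of Survivin (gene Birc5), an inhibitor of apoptosis and mitosis factor, in basal cell carcinoma formation.

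All 5 groups carried Rosa-SmoM2, an active form of the Hedgehog signal transducer Smoothened that is switched on by a Cre recombinase. In 3 groups the recombinase was Krt14-CREER, whose keratin 14 promoter is active in basal keratinocytes: Krt14-CREER/Rosa-SmoM2 at 6 weeks, the same genotype at 8 weeks, and Krt14-CREER/Rosa-SmoM2/Survivin LOF at 6 weeks. In the other 2 groups it was Inv-CREER, whose involucrin promoter is known for activity in differentiating keratinocytes: Inv-CREER/Rosa-SmoM2 at 8 weeks and Inv-CREER/Rosa-SmoM2/Krt14rtTA/Survivin-GOF at 8 weeks. They are called Krt14, LOF, Inv and GOF below, with the week where it is needed. The titles write the weeks as 6w TAM or 8w TAM and give no ages. GOF also carried Krt14rtTA, a doxycycline-dependent activator, for which the Inv controls are not labelled, so the activator and Survivin cannot be told apart. The sample descriptions call both Inv libraries control pools without saying what was pooled. No label says that 2 libraries of a group came from separate animals, so the p-values measure the spread between these libraries, which may be technical. No label describes the Survivin alleles, the dose of any drug or a batch.

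The unit is a normalized count, scaled so that each library summed to between 20011195 and 20014054. Between 7693153 and 8870758 reads stood behind each library, and 1 read was worth 2.25 to 2.60 normalized counts. A value that 3 reads would give, 6.76 to 7.80 normalized counts, was taken as the detection floor. Birc5 was at 961 and 1103 in Krt14 at 6 weeks and at 382 and 429 in LOF. It was at 237 and 265 in Inv and at 7277 and 16384 in GOF. Whether these Birc5 reads lie in the altered part of the gene was not known, so they check the labels only as totals. Xist, made from an inactive X chromosome, was at 51 to 194 in the 6 libraries of Krt14 and Inv, at 30024 and 59594 in LOF, and at 7589 and 56185 in GOF. Ddx3y, a Y-linked gene, was at 956 to 3328 in all 10 libraries, so the LOF and GOF libraries held both. A share of female cells and the Survivin genotype cannot be told apart in any comparison of LOF or GOF below.

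As background, Cxcl1, Cxcl2, Cxcl3 and Cxcl5 belong to the CXC chemokines that attract neutrophils through Cxcr2. Cxcl14 is a constitutive chemokine of skin and other epithelia. Cxcl16 is made as a membrane protein, can be shed by Adam10 and Adam17, and binds Cxcr6 on T cells. Ccl20 attracts Ccr6-bearing dendritic and T cells, and Ccl27, the product of Ccl27a, attracts skin-homing T cells through Ccr10. In keratinocytes, interleukins of the IL-1, IL-36 and IL-17 families and TNF are known to induce Cxcl1, Cxcl2, Cxcl5 and Ccl20, mainly through the transcription factor NF-kappaB and its cofactor IkappaB-zeta (gene Nfkbiz). Ccl27 can also be induced by TNF and IL-1.

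The promoter sequences show which of the genes carry a binding motif of NF-kappaB close to the start. RefSeq (GRCm38.p6) gave a promoter for 7 of the 9 genes, and the 130 bases before the start are printed for 5 of them, 5′ to 3′ on the gene's strand. Capitals mark the matches to the NF-kappaB consensus and, in Cxcl3, to the TATA box TATAAA.
Cxcl1: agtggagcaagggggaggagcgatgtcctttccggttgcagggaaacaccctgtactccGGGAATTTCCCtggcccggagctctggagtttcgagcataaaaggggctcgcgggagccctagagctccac
Cxcl2: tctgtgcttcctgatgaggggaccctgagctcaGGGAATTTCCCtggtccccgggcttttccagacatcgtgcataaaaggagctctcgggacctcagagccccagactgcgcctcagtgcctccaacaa
Cxcl3: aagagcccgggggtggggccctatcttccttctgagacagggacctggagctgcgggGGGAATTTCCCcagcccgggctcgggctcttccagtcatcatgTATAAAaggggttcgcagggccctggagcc
Ccl20: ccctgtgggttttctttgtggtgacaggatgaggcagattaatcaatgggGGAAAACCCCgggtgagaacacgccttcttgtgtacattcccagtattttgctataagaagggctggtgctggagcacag
Cxcl14: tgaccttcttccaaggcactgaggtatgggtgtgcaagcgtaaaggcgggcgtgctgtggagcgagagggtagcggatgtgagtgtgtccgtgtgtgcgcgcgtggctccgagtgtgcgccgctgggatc

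These windows are chr5:90891115-90891244 for Cxcl1, chr5:90903769-90903898 for Cxcl2 and chr5:90785971-90786100 for Cxcl3, all on the plus strand. They are chr1:83116636-83116765 on the plus strand for Ccl20 and chr13:56296552-56296681 on the minus strand for Cxcl14. Cxcl1, Cxcl2 and Cxcl3 each held the same 11-base stretch, GGGAATTTCCC, with its first base at -71, -97 and -73 from the RefSeq start. For Cxcl2, the GENCODE start used below, 90903871, lies inside the printed window, so its distance depends on the annotation. The NF-kappaB consensus matched the stretch once on each strand, in overlapping positions. The stretch, looked for on both strands after these matches were seen, stood in 14 of 32851 RefSeq promoters of 300 bases (0.0426%). Ccl20 held 1 match to the consensus at -80, on the other strand. The consensus, searched on both strands, was in 4.51% of the promoters. It was found in 1 of the 3 promoters of Ccl27a, after the start, and not in those of Cxcl14 and Cxcr2. TATAAA was in 13.6% of the promoters and, of these genes, in Cxcl3 alone. The AP-1 motif TGANTCA (7.81% of promoters) was found only in that same Ccl27a promoter. The Gli motif GACCACCCA (0.253% of promoters), which the Hedgehog effectors bind, was found in none of the 7 genes. A match describes letters, not a site that a factor binds, and no match says only that these letters are not in this window.

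Cxcl14 was the most abundant of the 9 transcripts in every group. Divided by exon length, its mean level in Krt14 at 6 weeks was 5772 normalized counts per kilobase. On the same per-kilobase scale Cxcl16 followed at 304, Cxcl1 at 223, Ccl27a at 50.9, Cxcr2 at 15.3, Ccl20 at 10.9, Cxcl2 at 6.77 and Cxcl5 at 4.29. In LOF the order was different. Cxcl14 was still first at 935 per kilobase, but Ccl27a was second at 73.4, ahead of Cxcl16 at 52.8 and Cxcl1 at 10.1. The plot of the 9 genes by library shows the same contrast on the scale of normalized counts.

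**Figure D1:**
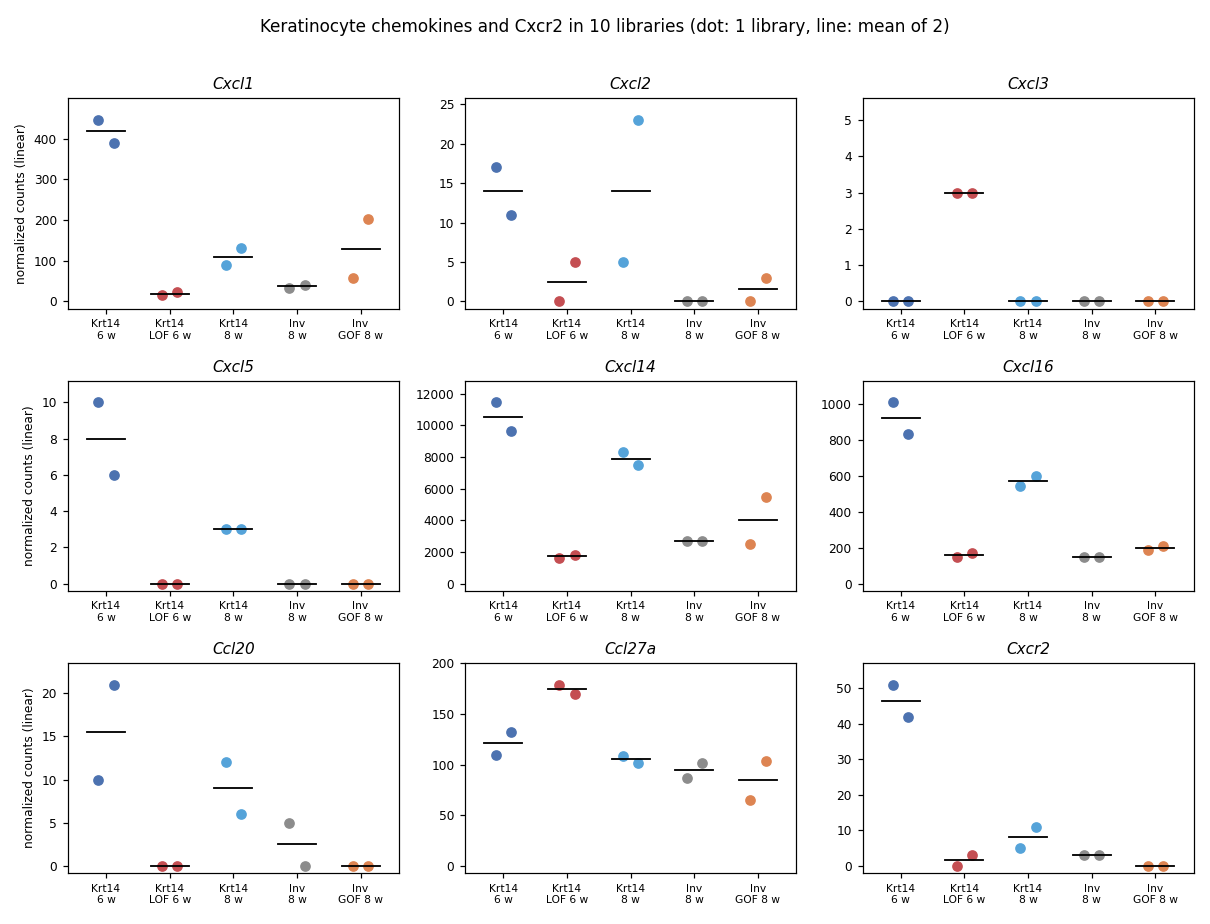
Normalized counts (y axis, linear, a scale of its own in each panel) of the 9 genes in the 5 groups (x axis); each dot is 1 library and each line the mean of 2. Cxcl1, Cxcl14, Cxcl16 and Cxcr2 are highest in both Krt14 libraries at 6 weeks, while Ccl27a is highest in the LOF libraries.

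In cells with Survivin LOF, 5 of the 9 genes were lower than in Krt14 cells of the same week. These were Cxcl1, Cxcl14, Cxcl16, Ccl20 and Cxcr2. Of the 7 genes with enough signal to test, 5 fell and none rose. Over all genes tested, 11.4% were called lower and 30.9% changed in either direction in this comparison. The median log2 change of the 7 was -2.62, against 0.16 for all 21995 genes tested. A call is an adjusted p under 0.05 from limma on log2(value + 1), with Benjamini-Hochberg adjustment over all genes tested. Cxcl3 and Cxcl5 did not reach 10 normalized counts in 2 libraries and were not tested. Cxcl2, Ccl20 and Cxcr2 reached that level through Krt14 libraries alone, so the count and median of the 7 lean toward lower in LOF. Of the genes that also reached 10 in LOF libraries, Cxcl1, Cxcl14 and Cxcl16 were lower and Ccl27a was not called. Rescaling the libraries by the median of ratios or by quantiles moved the median of all genes in this comparison to 0.02 or -0.005 and the share of higher genes among those called from 63.1% to 49.0% or 50.9%, while the same 5 genes stayed lower. A regression on log2 Xist left 3 of the 5 called, Cxcl1, Cxcl14 and Cxcl16, but 73.0% of the variation in Xist within groups lay between the 2 GOF libraries. In bulk samples of this kind, fewer cells that express a gene and less of its RNA per cell cannot be told apart.

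At 8 weeks 4 of the 7 tested genes were higher in Krt14 than in Inv cells. These were Cxcl1, Cxcl2, Cxcl14 and Cxcl16, and none was lower. Cxcl2, Ccl20 and Cxcr2 passed the filter through Krt14 libraries alone, so this count and the median lean toward higher in Krt14. Over all genes tested, 8.18% were called higher and 19.6% changed in this comparison, and the median log2 change of the 7 genes was 1.56 against -0.10 for all genes. Of the 4 calls, those of Cxcl14 and Cxcl16 held in every alternative run, and those of Cxcl1 and Cxcl2 were lost when any 1 of the 4 libraries was left out. The labels give these groups different recombinase drivers and no Survivin allele, but Birc5 RNA also differed, at 1005 and 926 in Krt14 against 237 and 265 in Inv (log2 change 1.94, adjusted p = 0.000726).

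Survivin GOF moved none of the 7 tested genes past the threshold when set against Inv. Over all genes, 15.3% were called changed in this comparison, 6.87% higher and 8.4% lower. Unadjusted p from limma was under 0.05 for 3 of the 7 (Cxcl1, Cxcl16 and Cxcr2) and for 6543 of all 21995 genes tested. With voom on the recovered reads, 0 of the 7 were called. A pseudocount of 5, a filter of 50 and a replicate block each called 1, Cxcl1 (adjusted p = 0.0482, 0.0485 and 0.0295). Their median log2 change was 0.43 against -0.01 for all genes. Without GOF replicate 1, which left GOF replicate 2 as the only library of its group, the log2 changes were 2.44 for Cxcl1 and 1.04 for Cxcl14. Without GOF replicate 2 they were 0.66 and -0.08. In such fits a lone library was assumed to vary like the other groups.

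Set against Krt14 at 8 weeks, GOF held less Cxcl14, Cxcl16, Ccl20 and Cxcr2. These were 4 lower and 0 higher of 7 tested, where 12.5% of all genes were called lower and 27.7% changed. The median log2 change of the 7 genes was -1.52 against 0.09 for all genes. Cxcl2, Ccl20 and Cxcr2 passed the filter through Krt14 libraries alone, so this count and median lean toward lower in GOF. Of the genes that also reached 10 in GOF libraries, Cxcl14 and Cxcl16 were lower, and Cxcl1 and Ccl27a were not called. The 2 groups differ in the recombinase driver, the activator and Survivin at once. Only the call of Cxcl16 held without each of the 4 libraries in turn, and without Krt14 replicate 1 or 2 it was the single call left.

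Between 6 and 8 weeks in Krt14 cells, 2 of the 7 tested genes fell, Cxcl1 and Cxcl16. Over all genes, 0.855% were called lower, 4.02% higher and 4.88% in either direction. The median log2 change of the 7 genes was -0.68 against 0.14 for all genes. Rescaling by the median of ratios or by quantiles moved the all-gene median to 0.0003 or -0.02 and the share of higher genes among those called from 82.5% to 53.7% or 67.5%. Both genes were still called with the median of ratios and neither with quantiles. Neither call held when any 1 of the 4 libraries was left out. The comparisons share libraries (Krt14 at 6 weeks in 2 of them, Krt14 at 8 weeks in 3, Inv in 2 and GOF in 2), so their values stand side by side and were not tested against each other.

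**Figure D2:**
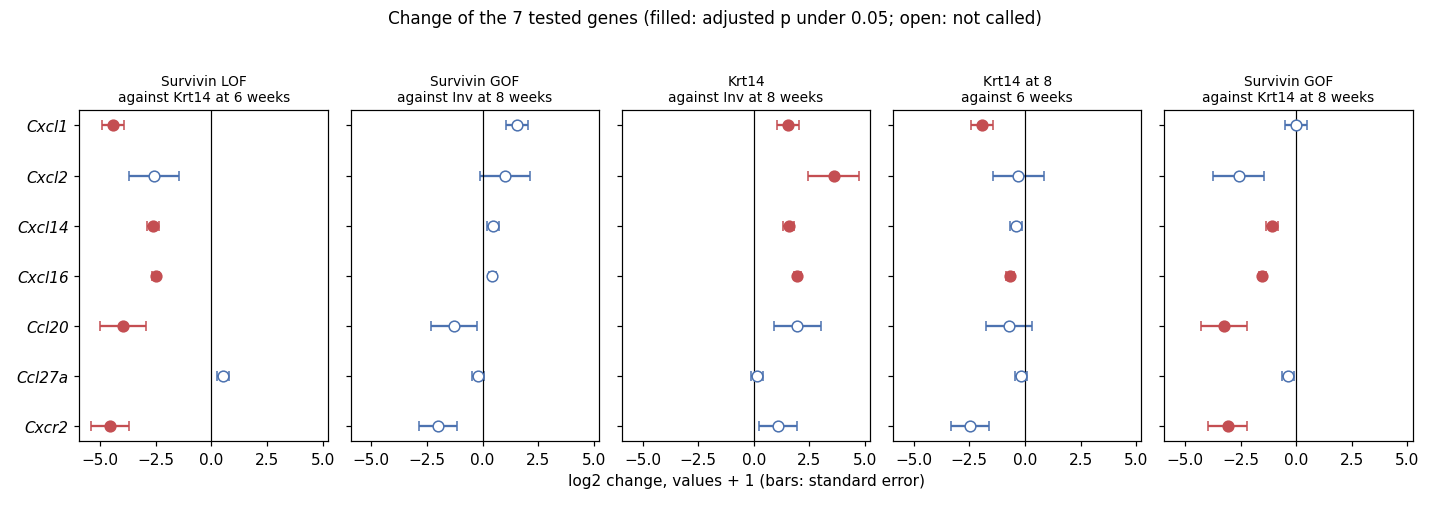
Log2 change of values + 1 (x axis) of the 7 tested genes in the 5 comparisons (1 panel each); bars are standard errors from limma, filled red points have an adjusted p under 0.05 and open blue points do not. The LOF panel holds 5 filled points, all lower, and the GOF against Inv panel holds none.

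Among the neutrophil-attracting ligands only Cxcl1 was well above the floor. Cxcl1 (ENSMUSG00000029380, chromosome 5, 90891241 to 90893115, plus strand) reached 445 and 390 normalized counts in the 6-week Krt14 libraries, against 15 and 23 in LOF. It was at 88 and 131 in Krt14 at 8 weeks, at 32 and 41 in Inv, and at 58 and 201 in GOF. The 6-week Krt14 libraries were above all 8 others, the LOF libraries were below all 8 others, and the GOF libraries lay on either side of both 8-week Krt14 libraries. Cxcl1 fell by 4.41 on the log2 scale in LOF (SE 0.49, adjusted p = 9.75e-05), and the fall was called in every alternative run. In reads, 337 stood in the 2 Krt14 libraries at 6 weeks and 16 in the 2 LOF libraries, a ratio of 22.1 (exact 95% interval 13.4 to 39.2, for counting error only).

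At 8 weeks Cxcl1 was 1.54 higher on the log2 scale in Krt14 than in Inv (SE 0.49, adjusted p = 0.0491). Leaving out any 1 of the 4 libraries ended that call, with an adjusted p of 0.102 without Krt14 replicate 1, 0.269 without Krt14 replicate 2, 0.232 without Inv replicate 1 and 0.141 without Inv replicate 2. From 6 to 8 weeks it fell by 1.95 (SE 0.49, adjusted p = 0.0488), a call also lost without any 1 library, with an adjusted p between 0.152 and 0.250. In GOF against Inv its log2 change was 1.55 (SE 0.49, adjusted p = 0.0562). Without GOF replicate 1 this was 2.44, with an adjusted p of 0.00100. Without GOF replicate 2 it was 0.66, with an adjusted p of 0.362. In GOF against Krt14 at 8 weeks the log2 change was 0.01 (SE 0.49, adjusted p = 0.992), and -0.06 or -0.11 after rescaling by the median of ratios or by quantiles.

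Cxcl2 (chromosome 5, 90903871 to 90905938, plus strand), a close relative of Cxcl1, was sparse. Its values were 17 and 11 in Krt14 at 6 weeks, 0 and 5 in LOF, 5 and 23 in Krt14 at 8 weeks, 0 and 0 in Inv, and 0 and 3 in GOF. The highest library, Krt14 replicate 2 at 8 weeks, held 9 reads. Krt14 at 8 weeks held 11 reads in all and Inv none, a ratio with an exact 95% lower limit of 2.69. The log2 change of 3.58 there (SE 1.14, adjusted p = 0.0485) depends on the added 1. Without Krt14 replicate 1 its adjusted p was 0.0644, without Krt14 replicate 2 it was 0.309, and without Inv replicate 1 or 2 it was 0.163 or 0.168. In LOF against Krt14 at 6 weeks there were 2 reads against 11, a ratio of 5.78 (exact 95% interval 1.26 to 53.7), and the gene was not called (adjusted p = 0.111).

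Cxcl3 and Cxcl5 lay at the limit of these libraries. Cxcl3 (chromosome 5, 90786103 to 90789600, plus strand) was at 3 in both LOF libraries, 1 read each, and at 0 in the other 8. Cxcl5 (chromosome 5, 90759360 to 90761624, plus strand) was at 10 and 6 in Krt14 at 6 weeks, at 3 and 3 in Krt14 at 8 weeks, and at 0 in the 6 libraries of LOF, Inv and GOF. The 6 Cxcl5 reads of Krt14 at 6 weeks stood against 0 in LOF, a ratio with an exact 95% lower limit of 1.24. No difference in Cxcl3 was detectable at this depth. The 4 ligands lie in 1 cluster on chromosome 5. Of the 50-base windows of Cxcl2 transcripts, 5.84% also occur in Cxcl3, and in no other gene.

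Cxcr2, the receptor of these ligands (chromosome 1, 74153989 to 74161246, plus strand), was at 51 and 42 in Krt14 at 6 weeks and at 0 and 3 in LOF. It was at 5 and 11 in Krt14 at 8 weeks, at 3 and 3 in Inv, and at 0 and 0 in GOF. Only the 6-week Krt14 libraries were clearly above the floor, and they overlapped with no other library. LOF held 1 read against 37, a ratio of 38.9 (exact 95% interval 6.56 to 1577), and Cxcr2 fell by 4.56 on the log2 scale (SE 0.86, adjusted p = 0.00253). Of the alternatives, only the regression on Xist ended that call, with a larger log2 change of -7.26 (adjusted p = 0.280). From 6 to 8 weeks in Krt14 there were 37 and 6 reads, a ratio of 6.31 (exact 95% interval 2.64 to 18.3), but the log2 change of -2.48 (SE 0.86) was not called (adjusted p = 0.125). It was called with a pseudocount of 5 and with voom on the recovered reads (lowest adjusted p 0.0245). In GOF against Krt14 at 8 weeks, 0 reads stood against 6, a ratio of Krt14 to GOF with an exact 95% lower limit of 1.14, and the call (log2 change -3.08, SE 0.86, adjusted p = 0.0212) was lost without Krt14 replicate 1 (0.0503), Krt14 replicate 2 (0.138) or GOF replicate 2 (0.0515).

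Neutrophils are known to carry Cxcr2, and most of their markers were near 0 in these libraries. Over 18 neutrophil markers the summed level was 33 to 54 normalized counts in Krt14 at 6 weeks, 30 to 44 in LOF, 58 to 67 in Krt14 at 8 weeks, 37 to 44 in Inv and 38 to 49 in GOF. Itgam, which other myeloid cells also express, was the largest part of the sum at 6 weeks, at 39 and 21 in Krt14 and 30 and 19 in LOF, and was at 13 to 24 in the other 6 libraries. Retnlg, Fpr2, Clec4d, Mrgpra2b and Cxcr1 were at 0 in all 10 libraries, and Ly6g and Csf3r were at 3 in 1 library and at 0 in the rest. Of the 4 tested markers, Ngp was called higher at 8 than at 6 weeks in Krt14, a call lost without any 1 library (0.0783 to 0.204), and Mmp8 lower in GOF than in Krt14, lost in 3 of 4 such fits (up to 0.150). The part of neutrophils in the Cxcr2 values was not tested.

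**Figure D3:**
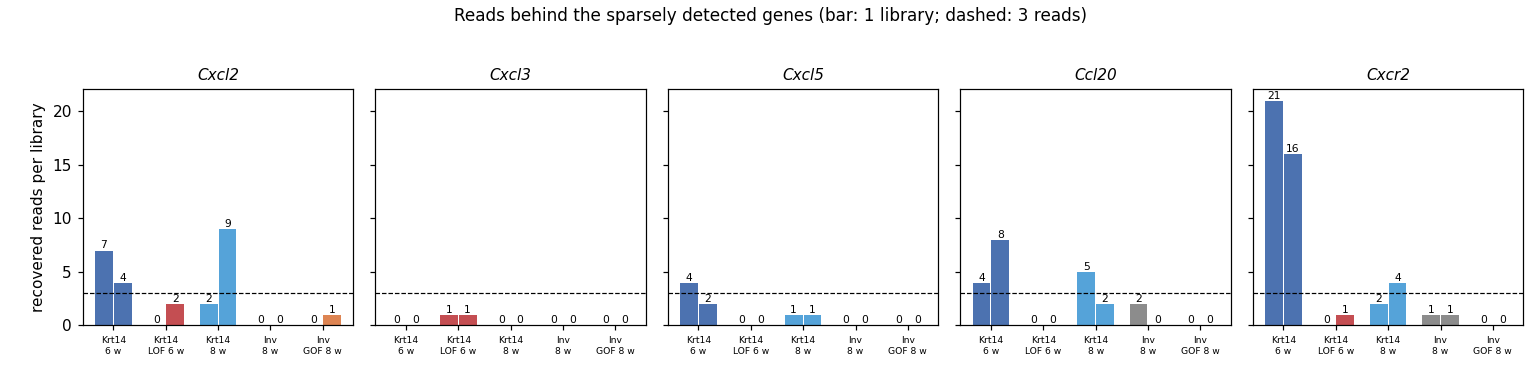
Recovered reads per library (y axis) of the 5 sparsely detected genes; each bar is 1 library, the x axis gives its group and the dashed line marks 3 reads. Cxcr2 has 21 and 16 reads in Krt14 at 6 weeks and at most 4 elsewhere, and Cxcl3 has 1 read in each LOF library only.

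Cxcl14 (ENSMUSG00000021508, chromosome 13, 56288643 to 56296551, minus strand) carried the largest signal. It stood at 11438 and 9654 in the 6-week Krt14 libraries, 1584 and 1833 in LOF, 8331 and 7457 in Krt14 at 8 weeks, 2662 and 2674 in Inv, and 2520 and 5496 in GOF. All 4 Krt14 libraries were above the 6 of LOF, Inv and GOF, and the 2 LOF libraries were the lowest. It fell by 2.62 on the log2 scale in LOF (SE 0.26, adjusted p = 5.18e-05), from a mean of 10546 ± 1261 (SD, n = 2) to 1709 ± 176 (SD, n = 2). Between Krt14 and Inv at 8 weeks it was 1.56 higher in Krt14 (SE 0.26, adjusted p = 0.00206). Both of these calls held in every alternative run.

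The GOF libraries differed in Cxcl14 by more than any other pair. The log2 change from Inv was 0.48 (SE 0.26, adjusted p = 0.259). It was 1.04 without GOF replicate 1, with an adjusted p of 0.000261, and -0.08 without GOF replicate 2, with an adjusted p of 0.775. Against Krt14 at 8 weeks the log2 change of Cxcl14 in GOF was -1.08 (SE 0.26, adjusted p = 0.0114), a call lost without Krt14 replicate 1 (0.0858) or Krt14 replicate 2 (0.0524). From 6 to 8 weeks its log2 change of -0.41 (SE 0.26) was not called (adjusted p = 0.392).

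Cxcl16 (ENSMUSG00000018920, chromosome 11, 70453983 to 70459984, minus strand) was, like Cxcl14, highest in Krt14 at 6 weeks, followed by Krt14 at 8 weeks and GOF, but Inv and not LOF was lowest. Its values were 1006 and 829 in Krt14 at 6 weeks, 149 and 170 in LOF, 544 and 597 in Krt14 at 8 weeks, 148 and 145 in Inv, and 186 and 211 in GOF. The 5 groups did not overlap, although LOF and Inv were separated by 1 normalized count. Cxcl16 fell by 2.51 on the log2 scale in LOF (SE 0.17, adjusted p = 5.14e-06). It was 1.95 higher in Krt14 than in Inv at 8 weeks (SE 0.17, adjusted p = 2.17e-05) and its change from Krt14 to GOF at 8 weeks was -1.52 (SE 0.17, adjusted p = 0.000113). The LOF and Krt14 against Inv calls held in every alternative, and the GOF against Krt14 call in all but the regression on Xist (log2 change -2.28, adjusted p = 0.0757).

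From 6 to 8 weeks Cxcl16 fell by 0.68 (SE 0.17, adjusted p = 0.0456). Without any 1 of the 4 libraries its adjusted p lay between 0.117 and 0.230, and quantile normalization gave 0.0762. In GOF against Inv the log2 change was 0.43 (SE 0.17) and not called (adjusted p = 0.110). Exons of Cxcl16 overlap those of Zmynd15 on the other strand, and 16.9% of its 50-base windows lie in that gene. Zmynd15 was at 459 and 323 in Krt14 at 6 weeks, 67 and 82 in LOF, 223 and 248 in Krt14 at 8 weeks, 160 and 113 in Inv, and 109 and 120 in GOF. The counting strand is not given in the sources used here, so reads of the shared stretch cannot be assigned to 1 of the 2 genes.

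Ccl20 (chromosome 1, 83116766 to 83119167, plus strand) was at 10 and 21 in Krt14 at 6 weeks, 12 and 6 in Krt14 at 8 weeks, 5 and 0 in Inv, and 0 in all 4 LOF and GOF libraries. In normalized counts the 4 Krt14 libraries were above the other 6. In reads, Krt14 replicate 2 at 8 weeks and Inv replicate 1 did not differ, with 2 each, below the floor. LOF held 0 reads against 12 in Krt14, a ratio of Krt14 to LOF with an exact 95% lower limit of 2.92. The call in LOF (log2 change -3.96, SE 1.04, adjusted p = 0.0144) was lost without Krt14 replicate 2 (0.112), LOF replicate 1 (0.0522) or LOF replicate 2 (0.0587). GOF held 0 reads against 7 in Krt14 at 8 weeks, with an exact 95% lower limit of 1.40, and that call (adjusted p = 0.0379) was lost without any 1 library (0.0680 to 0.193). Its receptor gene Ccr6 was at 0 to 6 in all libraries.

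Ccl27a (chromosome 4, 41769467 to 41774247, minus strand) was called in none of the 5 comparisons. It was at 110 and 132 in Krt14 at 6 weeks, 179 and 170 in LOF, 109 and 102 in Krt14 at 8 weeks, 87 and 102 in Inv, and 65 and 104 in GOF. Both LOF libraries were above the other 8, with a log2 change of 0.53 against Krt14 (SE 0.27, adjusted p = 0.161). In reads the ratio of LOF to Krt14 at 6 weeks was 1.44 (exact 95% interval 1.11 to 1.88, counting error only). The value is uncertain, since 45.0% of the 50-base windows of its transcripts also occur in near-copies such as Ccl27b and Gm20878, and its exons overlap Il11ra1 on the other strand. Il11ra1 rose by 1.14 in LOF (adjusted p = 0.00129), from 722 and 582 to 1371 and 1495, and Gm20878 rose from 10 and 3 to 25 and 55 (adjusted p = 0.0286). The Gm20878 call was lost in 2 of 4 leave-one-out fits (up to 0.194). Of the 6 tested genes of this locus and its copies, Ccl27a among them, these 2 were higher in LOF and none was called in the other 4 comparisons. Ccr10, the receptor of Ccl27, was at 6 to 39 and was called in none.

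Across the 10 libraries, Pearson correlations of log2(value + 1) among Cxcl1, Cxcl14 and Cxcl16 were 0.84 to 0.93, while those of Ccl27a with the other 6 tested genes were -0.23 to 0.21. These describe 10 libraries that share the differences between 5 groups, and carry no p. By the same measure among 12074 genes with a mean of at least 50, the genes most like Cxcl1 included Twf1 (r = 0.98) and Epha2 (0.96). Those most like Cxcl14 were Igsf3 (0.99), Pla2g4e and Pdlim7 (both 0.98), and those most like Cxcl16 included Nrg1 and Epgn (both 0.98). The nearest to Cxcr2 was Il24 (0.98), at 256 and 264 in Krt14 at 6 weeks, 0 and 3 in LOF, 28 and 18 in Krt14 at 8 weeks and 0 to 5 in Inv and GOF. Atp5b (0.96) and Sde2 (0.95) followed. Ccl20 was nearest to Mlf2 (0.98), Mrpl57 (0.98) and Ccnf (0.96), Cxcl2 to Stam (0.93), Ero1l (0.92) and Tmprss11b (0.92), and Ccl27a to Rpl7 (0.93), Tbl1xr1 (0.92) and Sh3pxd2a (0.91). Ccl20 and Cxcl2 stood on at most 8 and 9 reads in any library, so their correlations mostly separate libraries at 0 from those with a few reads. Each of these is among the closest of 12074 genes (12075 for Ccl20, Cxcl2 and Cxcr2), so a high value is no finding on its own.

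Other chemokines did not all follow the same pattern. Counts for the lists below stand against the share of all genes called higher and lower, which was 19.5% and 11.4% in LOF, 6.87% and 8.4% in GOF against Inv, 8.18% and 11.4% in Krt14 against Inv, 4.02% and 0.855% at 8 against 6 weeks, and 15.2% and 12.5% in GOF against Krt14. Of 11 other CXC, CX3C and XC ligands, 5 could be tested, and 6 were below 10 normalized counts in every library. Cxcl9 and Cxcl10, ligands of Cxcr3 known for induction by interferon-gamma, ran opposite to Cxcl14 and Cxcl16 between Krt14 and Inv at 8 weeks. Cxcl9 was at 3 and 8 in Krt14 at 8 weeks and at 128 and 217 in Inv, a log2 change of -4.80 in Krt14 (SE 0.61, adjusted p = 0.000314). Cxcl10 was at 26 and 23 against 396 and 380, a log2 change of -3.93 (SE 0.42, adjusted p = 9.58e-05). Cxcl11, at 35 and 49 against 151 and 150, had a log2 change of -1.84 (adjusted p = 0.0315), a call lost without any 1 of the 4 libraries (0.0923 to 0.176). Cxcl9 and Cxcl10 were also higher in GOF than in Krt14 at 8 weeks, by 4.15 and 3.05. In LOF against Krt14 the list had 2 lower, Cxcl11, at 0 in the LOF libraries and at 10 and 13 in Krt14 (adjusted p = 0.000520), and Cxcl12 (log2 change -0.92, adjusted p = 0.00797). The Cxcl12 call was lost without Krt14 replicate 1 or LOF replicate 1 (adjusted p up to 0.0759). None of the 5 was called in GOF against Inv or between 6 and 8 weeks.

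Of 20 other CC ligands, 7 could be tested. Ccl2, which attracts monocytes, was at 132 and 199 in Krt14 at 6 weeks, 20 and 19 in LOF, 81 and 95 in Krt14 at 8 weeks, 5 and 7 in Inv, and 65 and 11 in GOF. It fell by 2.99 in LOF (SE 0.65, adjusted p = 0.00551, or 0.0543 without Krt14 replicate 2) and was 3.68 higher in Krt14 than in Inv (SE 0.65, adjusted p = 0.00259). Ccl28, an epithelial ligand of Ccr10, was lower in Krt14 than in Inv (log2 change -2.61, adjusted p = 0.00141). The list held 2 higher (Ccl25 and Ccl28) and 2 lower (Ccl1 and Ccl2) in LOF, 1 higher (Ccl2) and 1 lower (Ccl28) in Krt14 against Inv, 2 higher (Ccl25 and Ccl28) in GOF against Krt14, 1 lower (Ccl1) between 6 and 8 weeks and none in GOF against Inv. The LOF calls of Ccl25, Ccl28 and Ccl1 were lost in 3 of their 4 leave-one-out fits, that of Ccl28 in GOF against Krt14 in 1, and the call of Ccl1 between 6 and 8 weeks in all 4 (adjusted p up to 0.327, 0.245, 0.0884, 0.0630 and 0.203).

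The receptors for these chemokines were mostly near the floor, and of 21 listed besides Cxcr2 11 could be tested. Cxcr6, the receptor of Cxcl16, was at 26 to 111 and was called in none of the comparisons. Ackr3, a scavenger of Cxcl12, rose in LOF from 638 and 334 to 3489 and 3373 (log2 change 2.89, SE 0.31, adjusted p = 7.13e-05). Ackr4 rose by 1.39 and Cxcr4 by 1.65 in LOF, and no receptor of the list was called lower there. In GOF against Inv, Ackr2 and Ackr4 were higher and Cxcr4 lower, with log2 changes of 3.70, 0.81 and -1.82. Of these 3, Ackr2 was lost without Inv replicate 2 or GOF replicate 2, Ackr4 in 3 of 4 leave-one-out fits and Cxcr4 without Inv replicate 2 (adjusted p up to 0.197, 0.163 and 0.0628). Krt14 against Inv had 2 lower (Ccr4 and Ackr4), GOF against Krt14 had 2 higher (Ackr4 and Ccr4) and 1 lower (Cxcr4), and 8 against 6 weeks had 1 higher (Cxcr4). Of these calls, only those of Ackr4 and Cxcr4 in GOF against Krt14 held without each library in turn. The largest adjusted p of the others was 0.0607 for Ccr4 and 0.134 for Ackr4 in Krt14 against Inv, 0.0665 for Ccr4 in GOF against Krt14 and 0.107 for Cxcr4 between the weeks.

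Of 36 tested genes of the pathway that induces Cxcl1, Cxcl2, Cxcl5 and Ccl20, 14 fell and 5 rose in LOF, with a median log2 change of -0.34 against 0.16 for all genes. The list mixes activators with inhibitors and RNA-decay factors, such as Tnfaip3, Nfkbia, Il1rn, Zfp36 and Zc3h12a. Its counts and median therefore give no direction for the pathway. Il36g (Il1f9 in the table), an IL-36 cytokine of keratinocytes, was at 196 and 215 in Krt14 at 6 weeks and at 20 and 21 in LOF (log2 change -3.26, SE 0.45, adjusted p = 0.000399). Tnf fell from 86 and 112 to 13 and 16 (log2 change -2.68, SE 0.33, adjusted p = 0.000192), and the kinase Irak4 fell by 0.89. Il17re, a subunit of the receptor for IL-17C, rose by 0.81. Nfkbiz and Zc3h12a, an RNase that degrades chemokine transcripts, were picked after their values were seen. Nfkbiz fell by 1.11 (adjusted p = 0.0299), lost without any 1 library (0.0788 to 0.160), and Zc3h12a by 1.89 (adjusted p = 0.00157).

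In Krt14 against Inv, 8 of the 36 were higher and 4 lower. Il36g was at 132 and 204 in Krt14 at 8 weeks and at 12 and 19 in Inv, 3.36 higher (SE 0.45, adjusted p = 0.000507). The IL-1 receptor antagonist Il1rn was 2.33 higher and the RNA-decay factor Zfp36 2.03 higher, while Tnfaip3, an inhibitor of NF-kappaB signalling, was lower (log2 change -1.97). Tnf did not follow, at 77 and 82 in Krt14 and 82 and 104 in Inv (adjusted p = 0.717). Nfkbiz was 1.32 higher and Zc3h12a 1.34 higher, and both calls were lost without any 1 library (0.0863 to 0.141 and 0.0672 to 0.119).

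In GOF against Inv, 7 of the 36 were higher and 1 lower. Zfp36 was 1.51 higher, Traf6 0.65 higher and the TNF receptor Tnfrsf1a 0.54 higher, and Tnfaip3 had a log2 change of -0.81. Each of these 4 calls was lost without Inv replicate 1 or without Inv replicate 2, and that of Traf6 also without GOF replicate 2 (adjusted p up to 0.109, 0.0944, 0.0874 and 0.0867). Nfkbiz was 1.38 higher (adjusted p = 0.0207), lost without Inv replicate 1 or 2 (up to 0.156), and was at 1217 in GOF replicate 1 and 3385 in GOF replicate 2. In GOF against Krt14 at 8 weeks 12 were higher and 5 lower. Il36g and Il1rn were lower, with log2 changes of -3.96 and -2.61, and Traf6 and Tnfaip3 higher by 1.04 and 1.16. Between 6 and 8 weeks only Nfkb1 was called (log2 change -0.40), and not without any 1 library (0.118 to 0.207).

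**Figure D4:**
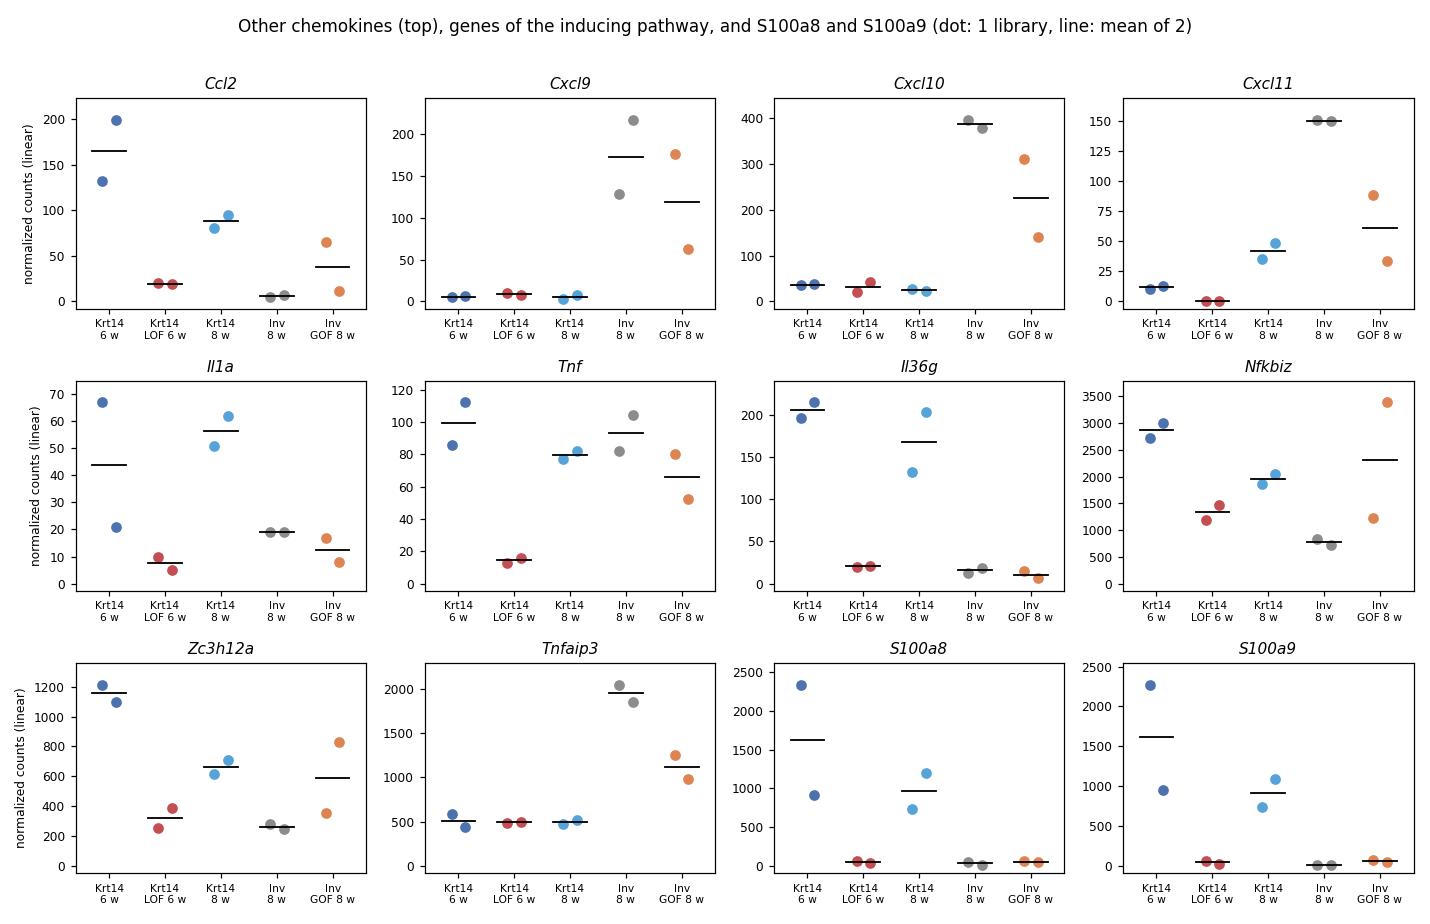
Normalized counts (y axis, linear, a scale of its own in each panel) of 12 other genes in the 5 groups (x axis): 4 other chemokines, 6 genes of the inducing pathway, and S100a8 and S100a9; dots are libraries and lines means of 2. Ccl2, Il36g, S100a8 and S100a9 are higher in the 4 Krt14 libraries than in LOF and Inv, and Cxcl9 and Cxcl10 are higher in Inv.

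Some other epidermal genes known to respond to the same cytokines, such as S100a8 and S100a9, differed more than the chemokine genes, and others less. Of 12 tested, 7 fell and none rose in LOF. S100a8, a subunit of calprotectin, was at 2336 and 907 in Krt14 at 6 weeks, 60 and 34 in LOF, 734 and 1191 in Krt14 at 8 weeks, 48 and 14 in Inv, and 63 and 47 in GOF. It fell in LOF with a log2 change of -4.98, as did its partner S100a9 (-5.24), the antimicrobial Lcn2 (-3.34) and the cytokine Il19 (-6.13). In Krt14 against Inv, 3 were higher and 5 lower. S100a9 was 6.04 higher and S100a8 5.11 higher, while Birc3 and Icam1, both NF-kappaB targets, were lower, with log2 changes of -1.51 and -0.96. GOF against Inv had 1 higher, S100a9 by 2.20 (adjusted p = 0.0134, lost without Inv replicate 1 or 2 at up to 0.118). GOF against Krt14 had 4 higher and 3 lower, among them S100a8 and S100a9 (log2 changes -4.08 and -3.84) and Birc3 and Icam1 (1.56 and 1.21). Krt14 at 8 against 6 weeks had 2 lower, Icam1 and Birc3, both lost without any 1 library (up to 0.176 and 0.235).

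The proteases and proteoglycans that shed or hold chemokines changed as follows. Of 8 tested, 4 were lower in LOF, with log2 changes of -0.81 for Adam10, -0.63 for Adam17, -1.61 for the syndecan Sdc1 and -4.93 for the gelatinase Mmp9. In Krt14 against Inv 3 were higher, Sdc1 by 1.70, Adam10 by 0.61 and Dpp4 by 0.90. The Dpp4 call was lost without any 1 library (0.177 to 0.212). GOF against Inv had 4 higher and 1 lower, with the smallest p for Rhbdf2 (0.81 higher). GOF against Krt14 had 2 higher and 4 lower, with the smallest p for Adam10 (log2 change -1.11), and none was called between 6 and 8 weeks. Of the genes that carry the Cxcr2 signal inside the cell, 14 were tested. In LOF 2 were higher and 4 lower, among them the arrestin Arrb1 (1.03 higher). Krt14 against Inv had 4 higher and 2 lower, with the smallest p for Arrb1 (1.02 higher, lost in 2 of 4 leave-one-out fits at up to 0.0569). GOF against Inv had 1 higher and 2 lower, with the smallest p for Pik3cg (log2 change -2.27), GOF against Krt14 had 3 lower, Gnai2, Pik3cg and Plcb3 (log2 changes -0.40, -0.96 and -0.49, each lost in 3 of 4 such fits at up to 0.243), and 8 against 6 weeks had none.

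The cells carried the markers of basal keratinocytes in all 10 libraries, with Krt5 at 61520 to 149229 and Krt14 at 47388 to 84983. The 12 keratinocyte markers summed to 463380 to 468438 in Krt14 at 8 weeks and to 338643 to 342758 in Inv. The 4 of smallest p, Epcam, Cdh1, Dsp and Itgb4, were higher in Krt14 (log2 changes 1.46, 0.95, 0.53 and 0.65). Perp ran the other way, at 34877 and 33831 against 38929 and 39412. Between the weeks Krt1 and Krt10 rose (1.90 and 1.98) and Itga6 and Perp fell (-0.50 and -0.34). None of these last 4 calls held without each library in turn. Markers of other cell types also moved with the groups. The 7 fibroblast markers summed to 1300 to 2702 in the 4 Krt14 libraries, 18835 to 19198 in LOF, 17974 to 20035 in Inv and 14814 to 37671 in GOF, nearly all of it Dcn. Col1a2 was also higher in LOF, at 647 and 1006 against 137 and 19 (log2 change 3.94, adjusted p = 0.00126). Col1a1 and Col3a1 did not follow and were at 218 or less throughout. Col1a1 was at 117 and 93 in LOF against 218 and 75 in Krt14 at 6 weeks, and Col3a1 at 30 and 21 against 103 and 24. Lum, Pdgfra and Pdgfrb were at 25 or less in LOF. The 7 melanocyte markers summed to 885 to 925 in Krt14 at 6 weeks and 2887 to 3043 in LOF, where 6 were higher, and to 1336 to 1494 in Krt14 at 8 weeks, 2263 to 2392 in Inv and 1768 to 1961 in GOF. The 12 Langerhans cell and macrophage markers summed to 427 to 472, 889 to 1704, 620 to 831, 892 to 965 and 981 to 1034 in the same order of groups, with 3 of 6 tested higher in LOF and Adgre1 at 0 in 9 of the 10 libraries. The T cell (441 to 864), pan-leukocyte (89 to 208) and endothelial markers (151 to 365 outside GOF, 368 and 1220 in GOF) had 0 or 1 called in each direction in LOF. In GOF against Krt14, 3 endothelial markers were higher and 1 lower, and 1 T cell marker was higher and 3 lower. The part of these cells in the chemokine differences was not tested.

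Genes that respond to the isolation of cells, such as Fos, Fosb and Nr4a1, also moved with the groups. The 16 of them summed to 44589 to 45998 in Krt14 at 6 weeks, 29295 to 34187 in LOF, 76822 to 77165 in Krt14 at 8 weeks, 25936 to 29975 in Inv and 36318 to 49987 in GOF. In Krt14 against Inv 13 were higher, in LOF 3 were higher and 8 lower, and in GOF against Inv 10 were higher. At 8 against 6 weeks 6 were higher and 1 lower, and in GOF against Krt14 9 were lower. In LOF against Krt14 and in Krt14 against Inv this sum moved in the same direction as Cxcl1, Cxcl14 and Cxcl16. In GOF against Krt14 it moved in the same direction as Cxcl14 and Cxcl16. In GOF against Inv the sum was higher in both GOF libraries, and none of the 7 tested genes was called. GOF replicate 2 had a higher sum than GOF replicate 1 (49987 against 36318). It also had more Cxcl1 (201 against 58) and Cxcl14 (5496 against 2520). Between the weeks in Krt14 the sum was higher at 8 weeks, while Cxcl1, Cxcl14, Cxcl16 and Cxcr2 were higher in both libraries at 6 weeks. Of these, Cxcl14 and Cxcr2 were not called between the weeks. The part of the isolation in the chemokine differences was not tested.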

How the data were processed

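The authors deposited 1 table of gene-level values for the 10 libraries. Per the submitters' processing notes, STAR, HTSeq and GRCm38 (mm10) were used; their versions, the strand setting and the annotation release are not stated there. As deposited, the values are a normalized score: 99.3% to 99.9% of values per library below 20000 are whole multiples of 1 constant after rounding up, and reads were recovered from them. No column was left unused.

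Genes at 10 or more in at least 2 libraries (21995) were tested on log2(value + 1) in 1 limma 3.58.1 fit over the 5 groups in R 4.3.3 (eBayes with trend, 5 residual and 5.91 prior degrees of freedom), two-sided, with Benjamini-Hochberg adjustment. An exact permutation test of 2 libraries against 2 cannot go below p = 0.333. Read ratios have exact conditional 95% intervals. Intervals and floors cover counting error only, since reads with no molecular identifiers may come from 1 molecule. Positions, exon lengths and biotypes came from GENCODE for GRCm38, which matched 49412 IDs, and Il36a, Il36b and Il36g were matched to older symbols through RefSeq. The model was tested on simulated data.

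The genes, lists and rules were chosen with earlier results of these data known. From each list up to 4 called genes of smallest p were named, and exceptions are stated. For each tested gene the 3 genes with the highest correlation were named. Some genes that these rules select are not reported here. Alternatives were the pseudocount (0.5, 5), the filter (none, 50), median of ratios, quantile normalization, a fit of only the groups compared, a robust fit, a replicate block, voom on recovered reads, leaving out each library and, chosen after seeing the data, log2 Xist as a covariate.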

Additional observations from a re-analysis of the deposited data

How the results depend on the processing

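Of 3062 values under the alternatives listed under processing, 2616 kept their direction and side of the threshold, 425 lost a call, 12 gained one and 9 changed sign, and under the covariate of log2 Xist, chosen after seeing the data, these were 102, 86, 0 and 33 of 221. The counts of called genes and of called chemokine genes, Cxcr2 included, that moved by over 1.5 times are given in the order all genes, then the 7 tested genes of interest. In LOF against Krt14 (6805 and 5) the Xist covariate gave 941 and 3, a filter of 50 gave 3 of the 7, and leaving out 1 library gave 3759 to 5239. In GOF against Inv (3359 and 0) only the groups compared gave 258, the covariate 40, a pseudocount of 5, a filter of 50 and the replicate block 1 of the 7 each, and leaving out 1 library 913 to 6198 and 0 to 2. In Krt14 against Inv (4309 and 4) a pseudocount of 0.5 and voom gave 2 of the 7, and leaving out 1 library gave 1897 to 2253 and 2. In Krt14 at 8 against 6 weeks (1073 and 2) no filter gave 536 and 0, quantiles 468 and 0, only the groups compared 8 and 0, voom 701 genes, the covariate 1780 genes, a pseudocount of 0.5 and the replicate block 1 of the 7 each, and leaving out 1 library 77 to 829 and 0. In GOF against Krt14 (6098 and 4) only the groups compared gave 2660 and 1, the covariate 202 and 1, a filter of 50 gave 2, and leaving out 1 library 3308 to 7293 and 1 to 3. A filter of 50 tests fewer of these genes; the cause of the other moves was not tested.

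Libraries of the same number did not deviate together (r between -0.0542 and 0.0407 over pairs of groups), so the replicate block gives no paired test. With it 6707, 3414, 4249, 987 and 6042 genes were called in the order above, and Cxcl1 in GOF against Inv was gained (adjusted p = 0.0295) and Cxcl16 between the weeks lost (0.0570).

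Log2 changes that changed sign with the Xist covariate in LOF were -0.65 for Ccl27a, -0.0094 for Ackr4, 0.78 for Ccl1, 3.01 for Ccl2, -2.78 for Gm20878, 0.26 for Hsp90aa1, -0.56 for Il11ra1 and 0.025 for Trp63. In GOF against Inv they were -2.32 for Cxcl1, -5.76 for Cxcl2, -1.61 for Cxcl14, -0.22 for Cxcl16, -1.05 for Ackr2, -0.25 for Ackr4, 0.032 for Adam10, -0.088 for Fosb, -0.27 for H2-Aa, -0.78 for Ier3, -1.49 for Nfkbiz, 0.46 for Plcb3, -0.36 for Rhbdf1, -0.49 for Sdc4, 2.65 for Trac, -0.079 for Traf6, -1.75 for Zc3h12a and -1.16 for Zfp36. In GOF against Krt14 they were -4.47 for Cxcl1, 0.030 for Cdh1, 0.91 for Dpp4, 0.086 for Gnai2, 0.44 for Pik3cg, 0.65 for Plcb3 and 3.44 for Trac. Leaving out 1 library, Cxcl14 in GOF against Inv ran from -0.082 without GOF replicate 2 to 1.04 without GOF replicate 1, and Ccl27a there from -0.53 to 0.14 in the same order. Between the weeks, Cxcl2 ran from -1.29 to 0.71 (without Krt14 replicate 1 at 8 weeks) and Birc5 from -0.19 to 0.0055 (without Krt14 replicate 2 at 6 weeks). Cxcl1 in GOF against Krt14 was -0.061 with the median of ratios, -0.11 with quantiles, -0.0051 with voom, -0.27 without Krt14 replicate 1, and between -0.88 and 0.90 without GOF replicate 2 or 1.

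Depth limits Cxcl2, Cxcl3, Cxcl5, Ccl20 and Cxcr2, which stood on 21 or fewer reads in every library.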
